A study of Mus musculus with 6 samples.

Results

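Erythroid lineage genes were followed in sorted mouse bone marrow stem and progenitor cells that lack Spred1 (KO, 3 arrays) or are wild type (WT, 3 arrays). The Spred1 protein dampens signalling from Ras to ERK, and the study compared the transcripts of these cells with and without it. All samples are labelled as strain C57BL/6, and the sort kept c-Kit+ Sca-1+ cells that carried neither CD48 nor lineage markers. How the KO allele was made, the age of the animals and whether the samples of a genotype came from separate animals are not stated in the labels, so p-values reflect only how far these samples spread, in part perhaps for technical reasons. The members were chosen by name for their role in red cell formation: Gata1, Klf1, Epor, Rhag, Slc4a1, Tfrc, Alas2, Hbb-bt and Hba-a1. They are 9 of the 34650 gene names on the array and are read by 11 probes, since Tfrc has 3.

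Red cells form from stem cells through progenitors that first switch on transcription factors and the erythropoietin receptor, then take up iron, build haem and globin, and remodel their membrane. GATA1 binds GATA motifs and KLF1 binds CACCC motifs in the control regions of erythroid genes. The gate excludes cells with lineage markers, and late genes such as the globins are not defining genes of stem and early progenitor cells. The members were read in this order: the progenitor factors Gata1, Klf1 and Epor, the iron uptake gene Tfrc, and the late genes of the membrane (Rhag, Slc4a1), of haem synthesis (Alas2) and of globin (Hbb-bt, Hba-a1).

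The probes set what can be told apart among late genes, so those on which the results turn are shown. The probe named Hba-a1 (mm9 chr11:32183955-32184014, plus strand) is annotated to transcripts of both adult alpha-globin genes, Hba-a1 and Hba-a2, and cannot separate them. The Hbb-b2 probe, which has no position in the files, is annotated to Hbb-b1 and Hbb-b2. The Alas2 probe lies at mm9 chrX:147004993-147005052, plus strand. Each probe is given 5′ to 3′.
Hba-a1: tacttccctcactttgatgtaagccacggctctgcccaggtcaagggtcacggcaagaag
Hbb-b2: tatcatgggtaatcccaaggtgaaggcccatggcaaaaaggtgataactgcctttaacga
Alas2: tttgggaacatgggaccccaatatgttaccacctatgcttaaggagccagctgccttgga

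Promoter sequence was at hand from RefSeq (GRCm38.p6) for 8 of the 9 members. The 250 bases before the start of each were searched on both strands for the GATA motif (GATAA or GATAG with A or T before it) and for the CACCC motif (CCNCNCCC). A GATA motif was present in 5 of the 8, against 27.1% of 27025 promoters of the same length, and a CACCC motif in 5 of the 8, against 45.6%. Epor and Alas2 held both. The windows of Epor (chr9:21963577-21963826, minus strand), Rhag (chr17:40810899-40811148, plus strand), Alas2 (chrX:150547167-150547416, plus strand) and Hbb-bt (chr7:103813924-103814173, minus strand) are shown to set a progenitor factor beside late genes. They run 5′ to 3′ and end at the base before the start, with the bases of GATA and CACCC motifs in capitals and no overlap between a GATA and a CACCC match.
Epor: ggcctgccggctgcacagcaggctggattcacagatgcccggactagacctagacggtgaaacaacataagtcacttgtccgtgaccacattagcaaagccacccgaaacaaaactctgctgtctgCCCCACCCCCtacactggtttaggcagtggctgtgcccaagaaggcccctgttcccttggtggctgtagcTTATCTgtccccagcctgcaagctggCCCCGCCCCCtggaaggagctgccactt
Rhag: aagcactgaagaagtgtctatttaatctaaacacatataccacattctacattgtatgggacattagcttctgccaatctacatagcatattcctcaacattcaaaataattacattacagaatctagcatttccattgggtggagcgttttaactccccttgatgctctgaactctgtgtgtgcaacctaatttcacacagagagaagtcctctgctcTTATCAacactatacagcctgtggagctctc
Alas2: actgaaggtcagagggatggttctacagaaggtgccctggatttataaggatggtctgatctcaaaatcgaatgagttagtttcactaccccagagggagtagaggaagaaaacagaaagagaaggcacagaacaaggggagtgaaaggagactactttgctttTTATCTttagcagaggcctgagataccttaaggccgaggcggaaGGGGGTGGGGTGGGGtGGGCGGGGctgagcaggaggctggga
Hbb-bt: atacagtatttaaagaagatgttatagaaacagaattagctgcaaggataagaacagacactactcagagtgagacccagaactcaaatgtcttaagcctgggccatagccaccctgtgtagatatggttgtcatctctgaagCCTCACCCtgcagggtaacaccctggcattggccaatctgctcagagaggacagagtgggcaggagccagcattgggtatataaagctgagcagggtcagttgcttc
The GATA motif ended 48 bases before the start in Epor, 25 in Rhag and 80 in Alas2, and Hbb-bt had none in this window. These matches describe the letters of the windows and were not tested as binding sites.

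Signals are given as log2 intensities relative to the 75th percentile of the same array, so that 0 equals that percentile and 1 unit is a doubling; levels of different genes are not compared, since each probe has its own brightness. Between 52.3% and 53.4% of the spots other than controls were well above background on each array, and no spot was saturated. The arrays lay on 2 slides scanned apart, slide 1 with replicates 1 and 2 of both genotypes and slide 2 with replicates 3. The targeted gene was read by 3 probes that did not move alike. The Spred1 probe at mm9 chr2:116998491-116998550 averaged 0.03 in KO and -2.41 in WT (limma adjusted p = 0.0133 over all probes). The probe at chr2:117005906-117005965 averaged 0.17 in KO and 1.15 in WT (adjusted p = 0.0543), and the one at chr2:117004952-117005011 averaged 0.64 in KO and 0.78 in WT (adjusted p = 0.590). The first is annotated to another transcript than the other two. The labels do not say where the deleted part lies, so these probes do not check the labels. Of the genes of the gate, Kit and Ly6a (which encodes Sca-1) were well above background on every array, and so was Cd48, whose protein the gate excludes, at -0.27, -0.15 and 0.20 in KO, against -0.67, 0.01 and 0.09 in WT.

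No member changed between the genotypes at the threshold used, a limma adjusted p under 0.05 over all genes. Of the 9 members, 8 could be fitted, since the 3 arrays of KO, of WT or of both lay well above background, and 0 passed. Among the 19610 genes tested 4 passed, which is 0.0204% (0.0102% higher in KO and 0.0102% lower), and among probes 0.0324%, so a count of 0 among 8 lies near the background. At an unadjusted limma p under 0.05 there was 1 member, Rhag, against 12.2% of all genes tested, and Rhag was also the 1 gene-level member whose KO and WT arrays did not overlap, against 19.6%. Rhag was fitted through its KO arrays alone, since no WT array was well above background. By value 6 of the 8 members measured lower in KO and 2 higher, where 48.8% of all genes tested measured higher. Their median difference was -0.09 on the log2 scale, against -0.01 over all genes.

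**Figure D1:**
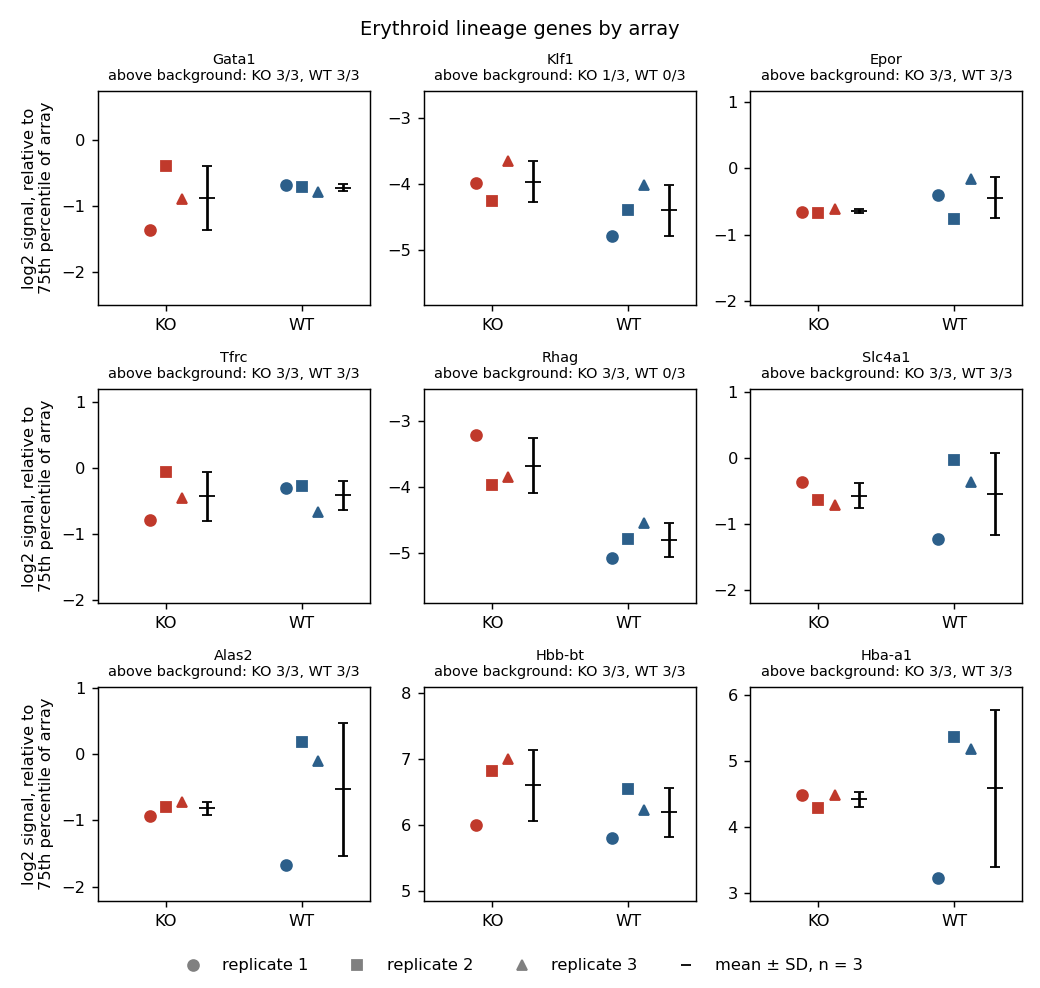
Log2 signal of each of the 9 erythroid genes relative to the array's 75th percentile (vertical axis, the same span in every panel), with KO left and WT right; points are arrays, bars are mean ± SD of 3 arrays. Rhag is the gene whose KO points all lie above its WT points, while Alas2 and Hba-a1 spread over more than 1.8 units in WT and 0.21 or less in KO.

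Gata1, the master transcription factor of erythroid and megakaryocytic cells, measured -1.36, -0.39 and -0.88 in KO replicates 1 to 3, against -0.68, -0.70 and -0.78 in WT replicates 1 to 3. The KO arrays surrounded the tightly grouped WT arrays, with KO replicate 2 above all of them and KO replicates 1 and 3 below. The difference was -0.16 ± 0.23 SE (95% interval -0.70 to 0.39, limma adjusted p = 0.773) and measured 0.08 without KO replicate 1.

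Epor encodes the receptor for erythropoietin, the hormone that keeps committed erythroid progenitors alive. It measured -0.66, -0.67 and -0.62 in KO, against -0.40, -0.77 and -0.15 in WT. Here the KO arrays were the tight group and lay within the range of the WT arrays. The difference was -0.21 ± 0.16 SE (95% interval -0.58 to 0.17, limma adjusted p = 0.585). It measured -0.37 without WT replicate 2 and -0.06 without WT replicate 3.

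Klf1 encodes the factor that drives adult beta-globin and many other late erythroid genes. Its probe measured -3.98, -4.26 and -3.64 in KO, against -4.78, -4.39 and -4.02 in WT. It was well above background on KO replicate 3 and on no other array, so it did not enter the fit. The exact two-sided permutation p of the measured values was 0.2, where 3 against 3 arrays can give no less than 0.1. KO replicates 1 and 3 lay above every WT array and KO replicate 2 above 2 of the 3. The difference measured 0.43 with all arrays and -0.003 after normexp background correction with quantile normalization. Of the 3 progenitor factors, then, Gata1 and Epor measured at ordinary signal and differed by less than their intervals, and Klf1 was near the limit of detection.

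Tfrc encodes the transferrin receptor, which brings iron into dividing cells and above all into those making haemoglobin. Its brightest probe (mm9 chr16:32632255-32632314), printed 10 times on the array, measured -0.79, -0.06 and -0.46 in KO, against -0.32, -0.29 and -0.67 in WT, with a difference of -0.02 ± 0.20 SE (limma adjusted p = 0.978). The other 2 probes lie further 5′ in the same transcript and measured higher in KO. The one at chr16:32620470-32620529 measured -0.41, -0.65 and -0.41 in KO, against -0.94, -0.54 and -0.76 in WT (0.26 ± 0.13 SE, limma adjusted p = 0.483 over 27808 probes). The one at chr16:32624877-32625093 measured -3.77, -3.25 and -3.61 in KO, against -4.79, -4.14 and -4.02 in WT (0.77 ± 0.23 SE, adjusted p = 0.393). It cleared background on 3 KO arrays and 1 WT array, and so entered the fit through its KO arrays alone. Of the 3 probes this was the only one whose KO and WT arrays did not overlap, as at 18.7% of all probes tested. With the mean of the 3 probes in place of the brightest, the Tfrc difference was 0.34 (adjusted p = 0.429), so its direction depends on the probe.

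Rhag encodes the Rh-associated glycoprotein, a membrane channel that carries the Rh complex to the red cell surface. It had the smallest p of the members. Its probe (mm9 chr17:40976929-40976988) measured -3.21, -3.98 and -3.86 in KO, against -5.08, -4.79 and -4.56 in WT. All KO arrays were well above background and above every WT array, and no WT array was well above background. On the processed signal, KO was at least 1.69-fold higher than the lowest signal well above background, a bound that holds for this background treatment only. The fitted difference was 1.13 ± 0.23 SE and did not pass (limma adjusted p = 0.359). The exact two-sided permutation p was 0.1, the smallest that 3 against 3 arrays can give. Rhag entered the fit only because its KO arrays were well above background, so its fitted p is not free of that choice. The difference lay between 0.89 and 1.28 with each array left out in turn, at 1.34 within slide 1 and at 0.70 within slide 2. It was 0.22 after normexp background correction with quantile normalization (limma adjusted p = 0.409).

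Of the other late genes, Hba-a1, Alas2 and Slc4a1 shared a pattern across arrays that did not follow genotype, and Hbb-bt shared it only in part. Hba-a1, read by a probe for both adult alpha-globin genes, measured 4.49, 4.29 and 4.49 in KO, against 3.22, 5.37 and 5.18 in WT. All 3 KO arrays fell between WT replicate 1 and the other WT arrays. The WT arrays spanned 4.43-fold and the KO arrays 1.15-fold. The difference was -0.17 ± 0.54 SE (95% interval -1.45 to 1.11, limma adjusted p = 0.905).

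Alas2 encodes the first enzyme of haem synthesis in erythroid cells. It measured -0.93, -0.80 and -0.72 in KO, against -1.68, 0.19 and -0.10 in WT, in the same order of arrays as Hba-a1 at the extremes: lowest on WT replicate 1 and highest on WT replicate 2. The span was 3.63-fold in WT and 1.15-fold in KO. The difference was -0.29 ± 0.46 SE (95% interval -1.37 to 0.80, limma adjusted p = 0.792).

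Slc4a1 encodes band 3, the anion exchanger of the red cell membrane. It measured -0.35, -0.63 and -0.70 in KO, against -1.22, -0.02 and -0.36 in WT. WT replicate 1 was again the lowest array and WT replicate 2 the highest, and the difference was -0.03 ± 0.30 SE (limma adjusted p = 0.977).

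Hbb-bt, an adult beta-globin gene read at mm9 chr7:110961105-110961164, stood apart from Hba-a1. It measured 6.00, 6.82 and 7.0 in KO, against 5.80, 6.54 and 6.23 in WT. WT replicate 1 was still the lowest array, but KO replicates 2 and 3 were the highest. The difference was 0.41 ± 0.30 SE (95% interval -0.30 to 1.13, limma adjusted p = 0.570).

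**Figure D2:**
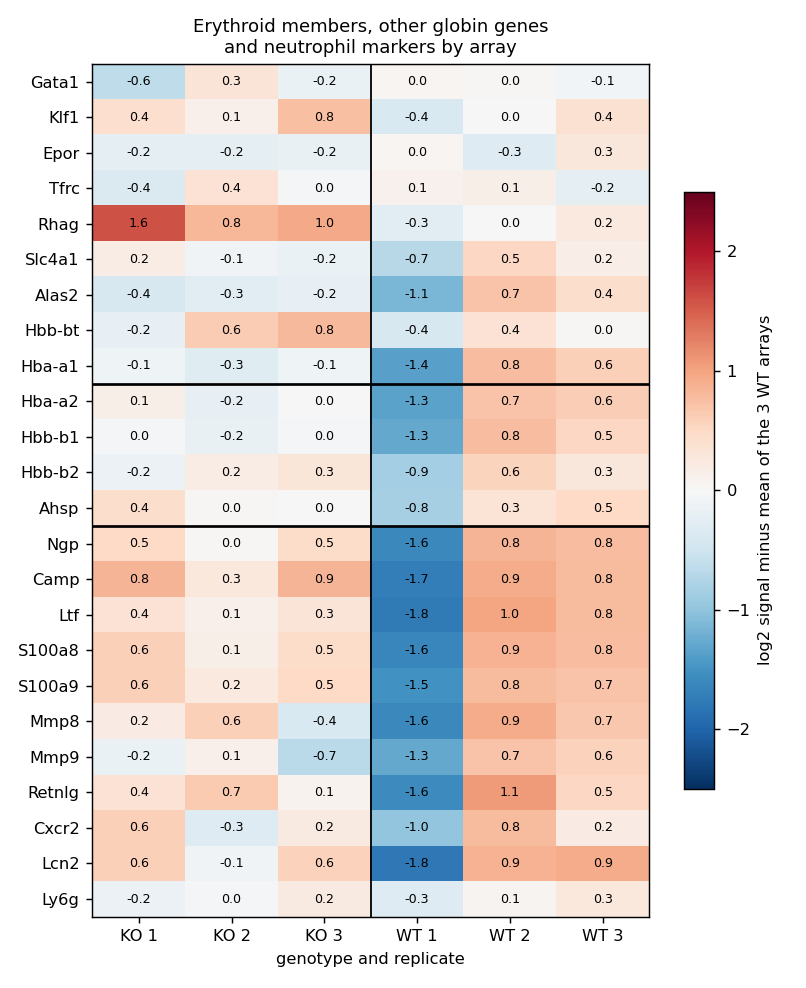
Log2 signal of each gene (rows) on each array (columns, KO left and WT right) minus the gene's mean over the 3 WT arrays; the rows are the 9 erythroid members, then 4 further globin-related genes, then 11 neutrophil markers. WT 1 is the lowest array for all neutrophil rows and for every row above them except Gata1, Epor and Tfrc.

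Other probes of the globin loci were read beside these. Hba-a2, whose probe is annotated to both alpha-globin genes, measured 7.02, 6.68 and 6.87 in KO, against 5.54, 7.61 and 7.50 in WT. Hbb-b1, whose probe is annotated to Hbb-b1 and Hbb-bs, measured 1.46, 1.31 and 1.47 in KO, against 0.22, 2.27 and 2.01 in WT. Both put every KO array between WT replicate 1 and the other WT arrays, and neither passed (limma adjusted p = 0.985 and 0.951). Hbb-b2 measured 3.07, 3.42 and 3.53 in KO, against 2.37, 3.80 and 3.52 in WT (adjusted p = 0.910). Ahsp, which encodes the chaperone of free alpha-globin, measured 1.01, 0.61 and 0.59 in KO, against -0.25, 0.92 and 1.08 in WT (adjusted p = 0.862). The embryonic globin genes Hba-x and Hbb-y were not well above background on any array, and Hbb-bh1 was on 2 KO arrays and 1 WT array.

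The progenitor and late genes can be set side by side by array. Relative to the WT mean of each gene, the median of the 3 progenitor factors was -0.22, 0.14 and -0.16 on KO replicates 1 to 3, against 0.04, 0.01 and 0.29 on WT replicates 1 to 3. The median of the 5 late genes was -0.11, -0.10 and -0.10 in KO, against -0.69, 0.51 and 0.25 in WT. The low WT array for late genes was thus not low for the median of the progenitor factors. Klf1 alone of them was lowest on that array (-4.78), near the limit of detection. The median difference between genotypes was -0.16 for the progenitor factors and -0.03 for the late genes. It turned to 0.08 for the progenitor factors without KO replicate 1, and ran from -0.37 without WT replicate 1 to 0.23 without WT replicate 2 for the late genes. Without WT replicate 1 the difference was -0.85 for Hba-a1, -0.86 for Alas2 and -0.37 for Slc4a1, 0.22 for Hbb-bt (0.41 with all arrays) and 0.99 for Rhag. No member passed with any array left out, and the difference between these 2 sets was not tested.

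**Figure D3:**
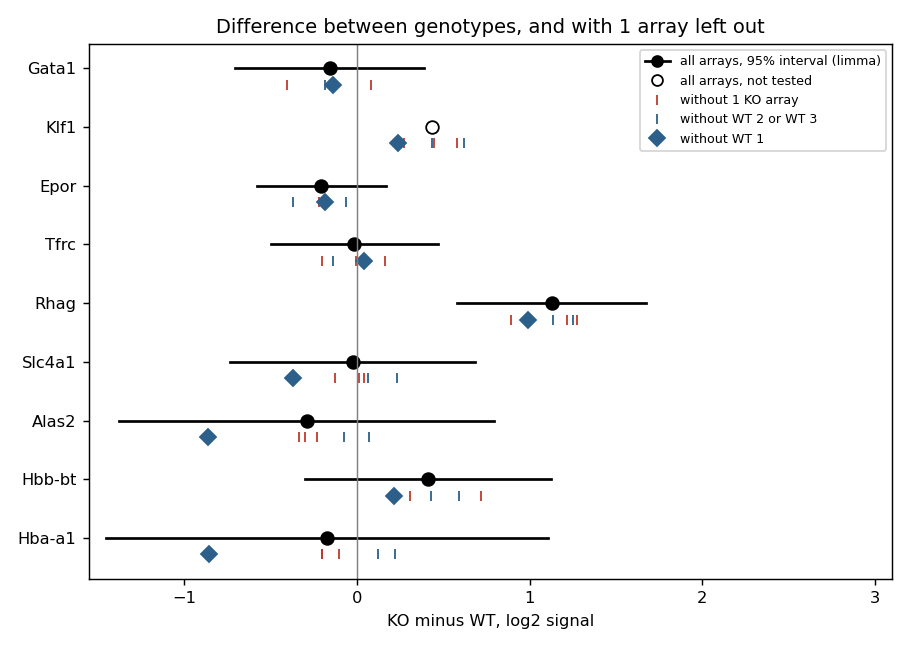
KO minus WT difference in log2 signal (horizontal axis) for each member, with the 95% limma interval where it was tested; small marks give the difference with 1 array left out. The intervals of 7 of the 8 tested members cross 0, and the diamonds show how Hba-a1, Alas2 and Slc4a1 move down without WT replicate 1.

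Markers of some other cells were, like the late genes, lowest on WT replicate 1. All 11 neutrophil markers were measured, none was at background on all arrays, and their summed signal (in multiples of the 75th percentile) ran from 325 to 424 in KO and from 94.2 to 501 in WT. Their median relative to the WT mean was 0.49, 0.13 and 0.33 in KO, against -1.61, 0.86 and 0.72 in WT, with WT replicate 1 again the lowest array. The 10 measured of 12 monocyte markers were lowest there too (0.17, 0.48 and 0.27 in KO, against -0.50, 0.17 and 0.46 in WT), and 9 of the 10 measured higher in KO by value. So were the 4 measured of 9 B cell markers (-0.22, 0.11 and 0.27 in KO, against -0.30, 0.25 and 0.23 in WT), with Pax5, Ebf1 and Igll1 at background on every array. For the 5 late genes the summed signal, most of it from the Hbb-bt probe, was 87.6 to 152 in KO and 65.8 to 137 in WT. The 11 measured of 12 megakaryocyte markers, a lineage that shares Gata1, did not follow this order (-0.01, 0.06 and -0.21 in KO, against -0.06, 0.15 and -0.10 in WT), and Gp6 did not clear background anywhere. The part of other cells in the spread of the late genes was not tested. In sorted populations such as these, fewer cells of a type and less RNA per cell cannot be told apart.

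For Hba-a1, the late gene with the largest SD over arrays, and Gata1, the progenitor factor with the largest SD among those measured, the genes of most similar profile were sought among 13864 named genes well above background on all arrays, by the root mean square difference between centred log2 profiles over the 6 arrays. For Hba-a1 (SD 0.76 over arrays) they were Hbb-b1 at 0.06, Hba-a2 at 0.09 and Cd177, which encodes a surface protein of neutrophils, at 0.11. For Gata1 (SD 0.32) they were Pim3 at 0.08, Glrp1 at 0.09 and Btg2 at 0.09. Pim3 encodes a kinase and Btg2 an antiproliferative protein. These profiles are descriptions over 6 arrays that share slides and scans.

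Other genes of the erythroid programme outside the member list did not pass either, though more of them measured lower than higher in KO. Of 74 listed names 67 were on the array and 56 were measured, and 0 passed over all genes (smallest limma adjusted p = 0.353). By value 41 measured lower and 15 higher in KO, with a median difference of -0.10, beside the 48.8% of all genes that measured higher. At an unadjusted limma p under 0.05 there were 10 lower, against 5.12% of all genes tested, and 0 higher, against 7.06%. The 10 became 6 without KO replicate 1 (3.51% of all genes), without WT replicate 1 (2.85%) or without WT replicate 3 (4.08%), and 4 within slide 1 (2.28%). With the mean of probes in place of the brightest, 7 were lower (4.8% of all genes) and 1 was higher. The KO arrays lay wholly below the WT arrays for 15 of the 56, against 10% of all genes, and wholly above for 2, against 9.53%.

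Haem synthesis genes gave the most of these. Of 11 measured, 10 had lower values in KO and 0 passed. The KO arrays lay wholly below the WT arrays for 6, against 10% of all genes tested. Slc25a37, which encodes mitoferrin, the importer of iron into mitochondria, measured 3.75, 3.82 and 3.84 in KO, against 4.15, 4.13 and 4.08 in WT. Its KO arrays were all lower than its WT arrays by a narrow and even margin, at 80.4% of the WT signal (-0.32 ± 0.08 SE, limma adjusted p = 0.363). With the mean of its probes in place of the brightest, Slc25a37 measured -0.20 (limma adjusted p = 0.505).

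Alad, the enzyme that makes porphobilinogen, measured 1.23, 1.24 and 1.36 in KO, against 1.68, 1.44 and 1.61 in WT (-0.30 ± 0.10 SE, limma adjusted p = 0.376). With the mean of its probes Alad measured -0.15 (limma adjusted p = 0.599). Abcb10, a transporter of the mitochondrial inner membrane that partners mitoferrin, measured 1.05, 1.12 and 0.97 in KO, against 1.35, 1.17 and 1.35 in WT (-0.24 ± 0.09 SE, adjusted p = 0.395). Both had every KO array below every WT array. For these genes and Slc25a37 WT replicate 1 was not the lowest WT array, unlike for Alas2 and the globins. The number of haem synthesis genes lower at an unadjusted p under 0.05 was 5 with all arrays, 2 without KO replicate 1, 3 without KO replicate 2 or KO replicate 3, and 1 without WT replicate 1, without WT replicate 3 or within slide 1. With the mean of probes it was 3. The share of all genes lower at that p also moved, at 5.12% with all arrays and from 2.28% to 6.28% over these settings.

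Of 8 measured genes of erythropoietin signalling, which runs through JAK2 and STAT5, 7 had lower values in KO and 0 passed (median -0.28). Socs2, a feedback inhibitor induced by STAT5, measured -0.34, 0.14 and -0.54 in KO, against 1.15, 0.65 and 0.79 in WT. Every KO array was below every WT array, at 46.3% of the WT signal on average (-1.11 ± 0.21 SE, limma adjusted p = 0.353). Pim1, a survival kinase and also a STAT5 target, measured 1.52, 1.75 and 1.58 in KO, against 2.20, 2.05 and 1.92 in WT (-0.44 ± 0.11 SE, adjusted p = 0.363), again without overlap. Cish and Socs3, 2 further feedback inhibitors, measured -0.62 ± 0.38 SE and -0.60 ± 0.45 SE and overlapped between genotypes. Cish measured -0.30 without KO replicate 3 and -0.95 without KO replicate 2, and Socs3 -0.19 without KO replicate 1 and -1.07 without KO replicate 2. These genes respond to several cytokine receptors, so they are not specific to Epor.

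Transcription regulators of the wider erythroid list had lower values in KO in 13 of 14 cases, with a median of -0.14, and 0 passed. Sox6, which represses embryonic globin, measured -2.67, -2.43 and -2.72 in KO, against -2.20, -2.30 and -2.36 in WT (-0.32 ± 0.11 SE, limma adjusted p = 0.376). Its arrays did not overlap, nor did those of Zbtb7a (-0.17 ± 0.09 SE, adjusted p = 0.452). With the mean of its probes Zbtb7a measured -0.09 (limma adjusted p = 0.710). Gfi1b, a repressor needed in erythroid and megakaryocytic cells, measured -0.31 ± 0.16 SE (adjusted p = 0.460), and Nfe2, a globin regulator, -0.16 ± 0.10 SE (adjusted p = 0.496).

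Iron handling genes were divided, with 5 of 8 lower and 3 higher by value and 0 passed. Slc11a2, which encodes the iron transporter DMT1, measured -0.49, -0.57 and -0.75 in KO, against -0.27, -0.21 and -0.15 in WT. The arrays did not overlap (-0.39 ± 0.10 SE, limma adjusted p = 0.363). With the mean of its probes Slc11a2 measured -0.14 (limma adjusted p = 0.540). Ncoa4, the receptor for ferritin breakdown, measured -0.18 ± 0.10 SE (adjusted p = 0.462), also without overlap. Ireb2, an iron-sensing RNA-binding protein, and Slc40a1, the iron exporter ferroportin, measured 0.19 ± 0.15 SE and 0.29 ± 0.24 SE and overlapped. Ireb2 measured 0.07 without WT replicate 2, and Slc40a1 0.04 without WT replicate 1.

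Of 19 membrane and skeleton genes on the array, 11 were measured, with 7 higher and 4 lower by value and 0 passed. Icam4, an adhesion protein of erythroid cells, measured -0.34 ± 0.13 SE (limma adjusted p = 0.393) and Gypc, a glycophorin, -0.22 ± 0.10 SE (adjusted p = 0.440). Car1, a carbonic anhydrase of red cells and their progenitors, measured -0.73, -1.44 and -1.56 in KO, against -1.72, -1.74 and -1.60 in WT (0.45 ± 0.22 SE, adjusted p = 0.445), and 0.19 without KO replicate 1. Ermap, an erythroblast membrane protein, measured 0.17 ± 0.08 SE (adjusted p = 0.442). With the mean of probes Ermap measured 0.43 and Car1 0.91 (limma adjusted p = 0.547 and 0.454). These 4, named for the smallest p of the 11 measured, had KO and WT arrays that did not overlap, against 19.6% of all genes tested. Ank1, Sptb, Add2 and Tmod1, which build or anchor the membrane skeleton, were not well above background on any array.

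**Figure D4:**
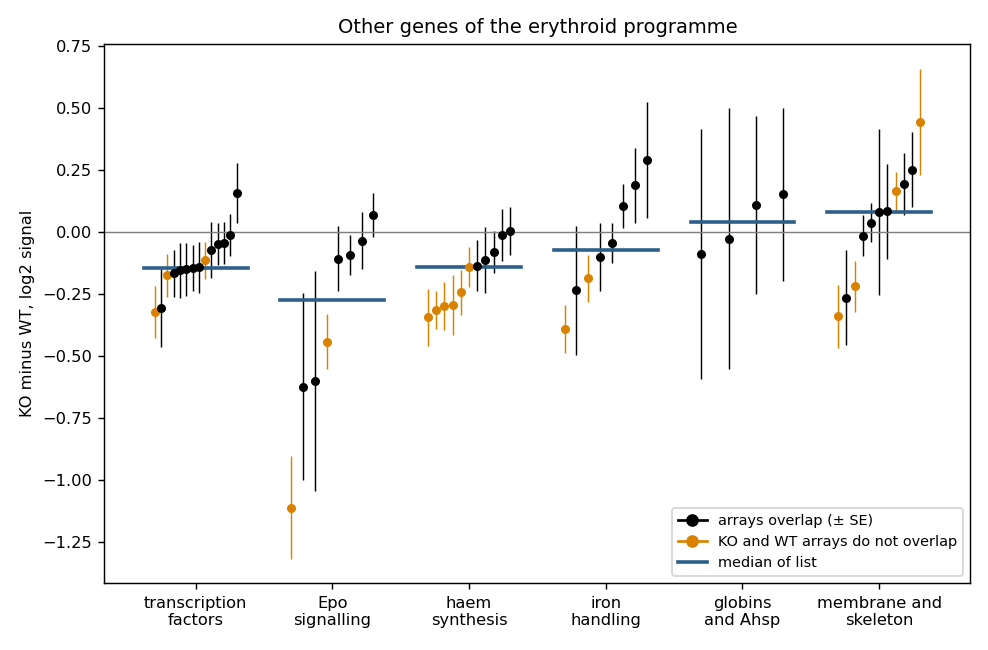
KO minus WT difference in log2 signal (vertical axis, ± SE of the limma fit) for each of the 56 measured genes of 6 erythroid lists (horizontal axis), with the list median as a blue line and genes whose KO and WT arrays do not overlap in orange. The haem synthesis list has 6 orange points, all below 0, where 10% of all genes tested lay wholly lower in KO. Socs2 is the lowest point at -1.11.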

How the data were processed

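Transcripts were measured on 6 single-colour arrays, each with 59305 spots other than controls. Per the file headers, the deposited intensity values were made with Agilent Feature Extraction 10.7.3.1 with spatial and multiplicative detrending of the processed signal. A value table from the authors held this signal divided by 1 constant per array (304 to 368), found by comparison, and served as an alternative.

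Control spots and spots marked as outliers were left out, spots of a probe averaged, and log2 signals taken minus the 75th percentile of the array. A gene was read by its brightest probe and kept if well above background on all 3 arrays of a genotype. The KO minus WT fit used limma 3.58.1 (R 4.3.3) with Benjamini-Hochberg adjustment over all genes (or all probes). The fit was also run on simulated data in which a gene had the same spread in both genotypes. That run does not cover unequal spreads such as those of Hba-a1 (SD 0.11 in KO and 1.19 in WT). The number of arrays limits the precision. Deviations of same-numbered arrays correlated at -0.03, 0.15 and 0.07, so no strong pairing by number was seen, though a weak one could be missed.

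Members and lists were chosen with earlier results of these data known. Genes named outside the members are, per wider list, those of smallest p up to 4 (not all are reported here), the 3 most like profiles of Gata1 and Hba-a1, the markers read beside a result, and Spred1. Gene names are those of the array design on mm9, updated through accessions to RefSeq (GRCm38.p6) symbols for probes read in detail. Genes not above background, such as Sptb or Hba-x, are named for that state, and the alternatives tried are given in the closing section.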

Additional observations from a re-analysis of the deposited data

How the results depend on the processing

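The number of members that passed (0) and of wider erythroid genes that passed (0) was the same under every alternative run: quantile normalization, normexp with quantile normalization, the authors' table, no filter, a filter on all 6 arrays, the mean of probes, the slide as a block, slide 1 alone, the replicate block and each array left out. Genes passing over the whole array numbered 4, against 9 with normexp, 6 with the mean of probes, 1 with quantile normalization, with the stricter filter or within slide 1, and 0 with no filter or with the replicate block. With each array left out they ran from 0 to 4. With 1 KO and 1 WT array per number, the replicate block cannot move a difference, so the medians of -0.16 for progenitor factors and -0.03 for late genes under it say nothing of stability. With arrays left out in turn, the progenitor medians ran from -0.196 to 0.083 and the late gene medians from -0.37 to 0.23.

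Some signs turned. Within slide 1 Slc4a1 measured 0.13, Hba-a1 0.09, Hbb-b1 0.14 and Hba-a2 0.28, and with the mean of probes Tfrc measured 0.34. With 1 array left out, Gata1 ran from -0.402 to 0.083, Tfrc from -0.20 to 0.16, Slc4a1 from -0.37 to 0.23, Alas2 from -0.862 to 0.068 and Hba-a1 from -0.85 to 0.22. Likewise Hbb-b1 ran from -0.73 to 0.30, Hba-a2 from -0.70 to 0.34, Hbb-b2 from -0.32 to 0.39 and Ahsp from -0.26 to 0.40. Klf1 measured -0.003 with normexp, against 0.43. The causes were not tested.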

Other observations

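Transcripts of mast cells and basophils varied within both genotypes. Prss34, a basophil protease, measured -0.22, -3.42 and -2.36 in KO, against -5.18, 1.53 and -5.10 in WT, and Mcpt8, another, measured -1.41, -3.88 and -6.27 in KO, against -5.34, 0.45 and -6.37 in WT. Both were highest on WT replicate 2 and next on KO replicate 1, while the globin probes Hba-a1, Hba-a2, Hbb-b1 and Hbb-b2 were also highest on WT replicate 2 but not next on KO replicate 1. Fcer1a, part of the IgE receptor, was well above background on WT replicate 2 alone (-2.39), and Cpa3 measured -1.82 there, its highest array. Gzmb, of the same list, went the other way, at -4.17, -3.42 and -4.50 in KO, against -6.28, -6.13 and -5.01 in WT, without overlap, but was well above background on 1 KO array and no WT array and was not tested. Ms4a2 was at background on all arrays. The summed signal of the 6 markers, in multiples of the 75th percentile, was 0.375 to 1.48 in KO and 0.221 to 4.75 in WT. Prss34 did not differ between genotypes beyond this spread (limma adjusted p = 0.844).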
